A study of Homo sapiens with 5 samples.

Results

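Genes that act in the recruitment of myeloid cells, 9 in number, were followed in SW480 tumor cells. They were chosen by name from the genes counted, and not by a value: the ligands CXCL1, CXCL2, CXCL3, CXCL8, CCL20, CX3CL1 and CXCL16, the receptor CXCR4 and the growth factor CSF1, which are 9 of the 15022 human genes kept in the tables. SW480 is an established human colorectal cancer line. Its cells carried GFP from a lentiviral vector and were injected into zebrafish embryos of 2 days post-fertilization (dpf), and pools of dissected tumors were sorted cell by cell into 384-well plates. The single-cell method was SORT-seq, which counts unique molecular identifiers (UMIs), so that a count stands for a captured polyA RNA molecule and not for a read. Libraries 6, 7 and 8 held cells of 1 day post injection (dpi) and libraries 10 and 11 cells of 4 dpi, each library being 1 plate, and the comparison asks how the tumor cells present early differ from those that remain later.

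Chemokines are small secreted proteins that guide leukocytes along a gradient through receptors on the responding cell. CXCL1, CXCL2, CXCL3 and CXCL8 share the ELR motif and draw neutrophils through CXCR1 and CXCR2, CCL20 acts through CCR6, and CX3CL1 and CXCL16 are made as membrane-bound proteins that are also shed. CXCR4 is the receptor of CXCL12, and CSF1 keeps macrophages alive through CSF1R. The genes of the ELR ligands and CCL20 are classical targets of the transcription factor NF-kB in epithelial cells under inflammatory signals. The host leukocytes were those of the fish, whose RNA was not counted here.

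CXCL8 (chr4:73740519-73743716, plus strand), CXCL1 (chr4:73869393-73871308, plus strand), CXCL3 (chr4:74036589-74038807, minus strand) and CXCL2 (chr4:74097040-74099196, minus strand) lie within 358.7 kb of chromosome 4 in hg38, with positions from GENCODE release 44. CCL20 is at chr2:227805739-227817564. The bases just upstream of the RefSeq transcription start are shown for these ligands, because their RNA was found in the same cells. A promoter entry (RefSeq, GRCh38.p14) was matched by symbol for 6 of the 9 genes, and CXCL16, CX3CL1 and CSF1 were without a match. The windows of 150 bases before the start are chr4:73869243-73869392 (plus), chr4:74099196-74099345 (minus), chr4:74038690-74038839 (minus), chr4:73740419-73740568 (plus) and chr2:227813692-227813841 (plus). RefSeq and GENCODE starts differ, so the windows of CXCL2 and CXCL8 overlap the GENCODE gene in part. That of CXCL3 overlaps it for the greater part, its capital letters included. The window of CCL20, before a start inside the GENCODE span, lies within it. Each reads 5′ to 3′ on the strand of its gene, and capitals mark a match to the NF-kB consensus or to GGAATTTCC on either strand.
CXCL1: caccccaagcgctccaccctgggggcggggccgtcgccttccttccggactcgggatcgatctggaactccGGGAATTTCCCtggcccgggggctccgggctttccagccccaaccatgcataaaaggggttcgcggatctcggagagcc
CXCL2: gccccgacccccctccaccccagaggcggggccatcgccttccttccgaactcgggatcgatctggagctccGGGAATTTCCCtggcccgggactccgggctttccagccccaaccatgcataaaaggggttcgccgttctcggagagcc
CXCL3: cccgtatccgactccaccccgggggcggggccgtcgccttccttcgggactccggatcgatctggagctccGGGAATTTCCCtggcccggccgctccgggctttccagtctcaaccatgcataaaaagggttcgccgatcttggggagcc
CXCL8: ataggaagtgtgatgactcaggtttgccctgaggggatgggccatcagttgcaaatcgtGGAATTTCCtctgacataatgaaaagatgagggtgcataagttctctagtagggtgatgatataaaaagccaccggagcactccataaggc
CCL20: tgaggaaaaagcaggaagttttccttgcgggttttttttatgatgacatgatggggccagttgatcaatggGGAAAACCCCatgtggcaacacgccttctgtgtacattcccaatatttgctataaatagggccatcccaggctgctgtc

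CXCL1, CXCL2 and CXCL3 carried the same run, in which a palindromic NF-kB consensus overlaps GGAATTTCC, and it ended 68, 67 and 68 bases before the start. The CXCL1 and CXCL3 windows were identical at 129 of 150 positions (86.0%). CXCL8 carried GGAATTTCC without the full consensus, ending 82 bases before the start, and CCL20 carried the consensus on its other strand, ending 69 bases before it. Of 35116 promoter windows of this length, 6.19% held the consensus and 0.253% held GGAATTTCC on either strand. The AP-1 letters TGACTCA, found in 2.89% of windows, occurred in the CXCL8 window, and TATAAA, found in 6.71%, occurred in those of CXCL8 and CCL20 and in that of 1 CXCR4 start. The windows of the 3 annotated CXCR4 starts held neither NF-kB form. These matches describe letters and were not tested for binding.

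The 826 cells that passed (533 of 1 dpi and 293 of 4 dpi, 132 to 228 per library) were those of more than 2000 genes and under 25% mitochondrial UMIs, and libraries held 3789627 to 7503652 UMIs in these cells. The median depth was 18823 UMIs per cell in library 11 and 25938 to 36197 in the others, and the median mitochondrial share was 10.4% to 12.9%. All plates used the same 384 well barcodes, so every barcode was shared, and each cell was identified by its plate and well. Of 8 colorectal epithelial markers 7 were kept, without KRT20, and their summed level was 4684 to 5746 CPM. Of 14 leukocyte markers 7 were kept, with 22.7, 26.4 and 22.8 CPM at 1 dpi and 8.58 and 7.65 at 4 dpi, and the pan-leukocyte marker PTPRC had 10 UMIs in all passing cells. Library 7 had the highest levels of CXCL8 and CCL20. A single cell gave 753 of its 1280 CXCL8 UMIs (58.8%), the largest such share for CXCL8, and another gave 199 of its 442 CCL20 UMIs. Such cells were not confined to library 7. For CCL20 the top cell held a larger share in libraries 10 (57.3%) and 11 (52.8%) and a smaller one in libraries 6 and 8. For CXCL2 a single cell held 63.9% of the UMIs of library 8. Results that rest on library 7 are given with and without it where a fit without it could be made. The other libraries were also left out in turn.

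CXCL8 had the most UMIs of the 9 genes and CSF1 the fewest, and the spread between libraries differed widely among the genes. Levels are TMM-normalised CPM (UMIs of the gene scaled to the depth of the library), not per length, so they are compared between libraries and not between genes. CXCL8, a neutrophil attractant, stood at 40.1, 243 and 25.6 CPM at 1 dpi (libraries 6, 7 and 8) and at 96.7 and 87.7 at 4 dpi (libraries 10 and 11). The 1 dpi values lay on both sides of those of 4 dpi, with library 7 the highest. CXCL1 stood at 17.5, 41.0 and 15.7 CPM at 1 dpi and at 51.9 and 20.03 at 4 dpi. CXCL2 stood at 5.89, 8.16 and 12.8 CPM at 1 dpi and at 25.9 and 10.9 at 4 dpi. Library 10 was the highest for both, and the time points overlapped for both. CXCL3 stood at 24.2, 34.2 and 19.1 CPM at 1 dpi and at 39.0 and 18.7 at 4 dpi, again overlapping.

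CCL20, which attracts CCR6-bearing dendritic cells and lymphocytes, stood at 41.6, 83.9 and 40.5 CPM at 1 dpi and at 31.2 and 33.0 at 4 dpi. Both 4 dpi libraries were below all 3 of 1 dpi, and library 7 was the highest (95% exact Poisson interval 76.3 to 92.1). CX3CL1 (chr16:57372477-57385044), known as fractalkine, stood at 9.63, 4.75 and 3.15 CPM at 1 dpi and at 3.78 and 4.94 at 4 dpi. CXCL16 (chr17:4733533-4739928), the ligand of CXCR6, stood at 8.29, 8.73 and 8.40 CPM at 1 dpi and at 8.56 and 8.85 at 4 dpi. The highest CXCL16 library was 1.07 times the lowest, against 9.48 times for CXCL8, 4.41 times for CXCL2 and 2.08 times for CXCL3. CXCR4 (chr2:136114349-136119177) stood at 2.01, 2.85 and 1.47 CPM at 1 dpi and at 8.06 and 8.85 at 4 dpi, without overlap. CSF1 (chr1:109910242-109930992) had 39 UMIs in all, with 2.14, 2.28 and 0.840 CPM at 1 dpi and 0.504 and 1.30 at 4 dpi.

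Between time points, CXCR4 and CXCL2 rose and CCL20 fell, and the other 6 genes did not pass the test. The test was edgeR's quasi-likelihood test on UMIs summed per library, with Benjamini-Hochberg adjustment over 12646 genes, and changes are log2 of 4 dpi over 1 dpi. It called 27.6% of all genes tested (13.4% higher and 14.2% lower), so that 3 called genes of 9 is a share near that of the whole table. The median log2 change was 0.04 over the 9 genes and 0.0023 over all genes. CXCR4 rose by 1.99 (SE 0.35, adjusted p = 0.000757, edgeR) from a mean of 2.11 ± 0.694 CPM (SD, n = 3) to 8.45 ± 0.556 (SD, n = 2). CXCL2 rose by 1.09 (SE 0.33, adjusted p = 0.0229, edgeR), although its libraries overlapped. CCL20 fell by 0.78 (SE 0.25, adjusted p = 0.0312, edgeR). The levels of CCL20 and CXCR4 were the ones of the 9 whose libraries did not overlap between time points, a pattern that 54.6% of all genes tested had.

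CXCL1 differed by 0.56 (SE 0.35, adjusted p = 0.259), CXCL3 by 0.16 (SE 0.26, adjusted p = 0.669) and CXCL16 by 0.04 (SE 0.25, adjusted p = 0.925) in the same edgeR fit. The difference was -0.15 for CXCL8 (SE 0.57, adjusted p = 0.876), -0.49 for CX3CL1 (SE 0.43, adjusted p = 0.420) and -0.99 for CSF1 (SE 0.66, adjusted p = 0.278) in that fit. The CXCL8 value turned on library 7: without this library the gene was higher at 4 dpi by 1.47 (adjusted p = 2.15e-05, edgeR), and without the top cell of each library by 0.44 (adjusted p = 0.477, edgeR). CXCL1 also passed without library 7 (1.11, adjusted p = 0.0122, edgeR) or without library 11 (1.08, adjusted p = 0.0150, edgeR), and was -0.29 without library 10. The CXCR4 call held in all 15 other settings that could test it, at 1.79 to 2.69. Thinning to 5000 UMIs left too few CXCR4 UMIs for a test, so its call was not tested at equal depth. The calls of CXCL2 and CCL20 did not hold in all settings. After thinning to 5000 UMIs CXCL2 changed by 0.04 (adjusted p = 0.971) and CCL20 by -0.39 (adjusted p = 0.380, edgeR). CXCL2 gave adjusted p = 0.0848 without library 6, 0.569 without library 10 and 0.186 (0.74) at a mitochondrial maximum of 15%. CCL20 gave adjusted p = 0.115, 0.0711 and 0.0568 without libraries 7, 10 and 11 and 0.118 (-0.70) at a minimum of 3000 genes (edgeR), and DESeq2 gave 0.230 for CXCL2 and 0.244 for CCL20. A library sum cannot tell more cells with a transcript from more RNA per cell. The sources do not say if each plate drew on its own pool of tumors, so p-values may measure technical spread alone.

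The share of cells with a UMI was compared after each cell was thinned to 5000 UMIs, which 815 cells allowed. For CXCR4 it was 0%, 1.43% and 0% at 1 dpi (0 of 226, 2 of 140 and 0 of 160 cells) and 2.31% and 1.89% at 4 dpi (3 of 130 and 3 of 159 cells). A count of 0 in 226 or 160 cells limits only the cells with a UMI at this depth. With all UMIs the CXCR4 shares were 2.63%, 3.52% and 2.45% at 1 dpi and 10.6% and 11.8% at 4 dpi. The libraries of 4 dpi were above those of 1 dpi at both depths, and library 11 was also the shallowest. For CXCL2 the thinned shares were 0.885%, 3.57% and 3.12% at 1 dpi and 5.38% and 3.77% at 4 dpi, again without overlap, although its summed UMIs at this depth did not pass. These 2 of the 9 genes had shares without overlap in this single random draw, against 37% of all genes tested. Averaged over draws, for which no share over all genes is given, CXCL3 was also without overlap. Its mean share was then 6.70% at 1 dpi and 8.19% at 4 dpi, against 7.90% and 6.61% in the single draw. With 3 libraries against 2 the exact two-sided permutation test cannot go below p = 0.1. It gave 0.2 for CXCR4 and CXCL2 in the single draw. Averaged over draws it gave 0.1 for these and 0.2 for CXCL3. The shares of CXCL16 were 3.98%, 3.57% and 3.12% at 1 dpi and 3.08% and 3.77% at 4 dpi, with permutation p = 0.7 in the same exact test. They changed direction with depth. With all UMIs they were 22.4%, 24.6% and 19.0% at 1 dpi and 18.9% and 16.1% at 4 dpi (permutation p = 0.2). At 10000 UMIs they were 8.81%, 7.94% and 8.51% at 1 dpi and 10.2% and 10.6% at 4 dpi (permutation p = 0.1).

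CXCL1, CXCL2, CXCL3, CXCL8 and CCL20 sat in few cells, whereas CXCL16 was spread over many cells with about 1 UMI each. CXCL16 had 216 UMIs in 168 cells and never more than 3 in a cell, and CCL20 had 1197 UMIs in 87 cells and up to 199 in a cell. The 5 cells with the most CCL20 held 81.4% to 88.7% of its UMIs in a library, and for CXCL2 they held 71.4% to 91.8%. The same share was 67.2% to 81.3% for CXCL1, 63.5% to 84.5% for CXCL8 and 50% to 71.1% for CXCL3. For CXCL16 it was 19.4% to 38.2%, below every library value of these 5 ligands. CX3CL1 lay between, at 42.1% to 68.0%.

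The number of cells with a UMI was set beside the number that the same UMIs would reach if they fell on cells in proportion to depth. For CXCL16 the ratio of observed to expected cells was 0.870 to 0.982, and for CCL20 it was 0.113 to 0.234. CXCL1 had 0.216 to 0.337, CXCL2 0.209 to 0.428, CXCL3 0.331 to 0.466 and CXCL8 0.276 to 0.385. Every value of these ligands was below every value of CXCL16. CX3CL1 ran from 0.392 in library 6, where 23 cells held 72 UMIs, to 0.916 in library 11, where 16 cells held 19. CXCR4 had 0.358 to 0.648 on 7 to 34 UMIs per library, and CSF1 had too few UMIs (2 to 16) for the ratio to be read.

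The overdispersion, a moment estimate of the variance between cells beyond counting noise, separated the same genes in each library. It was 7.60 to 49.5 for the 5 ligands, above that of at least 97.4% of the genes compared in the library. CXCL16 had 0.0629 to 1.02, beside medians over all genes of 0.434 to 0.555. Cells of 1 plate are not replicates, so these are descriptions per library. After thinning to 5000 UMIs the 5 highest cells held 70.7% ± 11.1 of the CXCL8 UMIs (SD, n = 5 libraries), against 69.9% ± 8.57 with all UMIs. For the other 4 ligands the thinned means were 73.4% to 95.2%, against 63.4% to 85.7%, on as few as 2 UMIs in a library.

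The cells rich in these ligands were largely the same cells. The 10 richest cells of each library, 4.39% to 7.58% of its cells, held 71.6% to 88.9% of the UMIs of CXCL1, CXCL2, CXCL3, CXCL8 and CCL20 together, and 43.7% to 69.3% of cells had none of them. The top cell of library 8 had 35 CXCL1, 39 CXCL2, 18 CXCL3, 52 CXCL8 and 75 CCL20 UMIs, which was 2.99% of its 7320 UMIs. The top cell of library 11 had 29, 0, 2, 99 and 67 of them in the same order. The cell of library 7 with 753 CXCL8 UMIs had 1 CXCL1, 3 CXCL2, 0 CXCL3 and 5 CCL20 UMIs, so that its count came almost wholly from CXCL8.

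Cells with both CXCL1 and CXCL8 at 5000 UMIs numbered 4, 5 and 4 at 1 dpi (libraries 6, 7 and 8) and 5 and 6 at 4 dpi. Independent detection would give 0.558, 1.80, 0.412, 1.11 and 1.59 cells. All 5 libraries were thus above that number, by 2.78 to 9.70 times. Over all 10 pairs of the 5 ligands and 5 libraries, 49 of 50 ratios of observed to expected cells were above 1 at 5000 UMIs, and 50 of 50 with all UMIs, where they ran from 1.34 to 6.99. With all UMIs, 6, 10, 7, 8 and 10 cells of libraries 6, 7, 8, 10 and 11 had at least 4 of the 5 ligands, where independent detection would give 0.135, 0.882, 0.107, 0.485 and 0.216. At 5000 UMIs such cells numbered 2, 5, 4, 3 and 3, against 0.0016, 0.029, 0.0070, 0.014 and 0.015. For at least 2 ligands with all UMIs the numbers lay closer, at 33, 36, 25, 30 and 26 cells against 23.7, 39.8, 17.3, 28.4 and 22.3. Depth varies between cells and raises joint detection with all UMIs, so the thinned values are the ones at equal depth. Pairs of CXCL16 with the 5 ligands gave 0.722 to 1.00 times the expected number when all UMIs and all cells were taken.

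Across cells within a library, the correlation of log counts, scaled to the depth of the cell, averaged 0.46 to 0.69 over the 5 libraries for the 10 pairs of these ligands. It averaged -0.09 to -0.0074 for CXCL16 with the other 8 genes, and 0.07 to 0.11 for CX3CL1 with the 5 ligands. At 5000 UMIs the averages for the 10 pairs were 0.39 to 0.57. Cells share plates and chemistry, and in sparse counts the low values describe little. CXCL1 and CXCL2 share 28 stretches of 60 bases, the length of read 2, and 26 of them lie in the last 500 bases of the transcript, which is 5.90% of the stretches there. CXCL2 and CXCL3 share 38, none in the last 500 bases. How much of the CXCL1 and CXCL2 counts such reads could exchange was not tested, while CXCL8 and CCL20 shared no such stretch with any of the others.

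Cells with a CXCL1 UMI were then compared with cells without, the library being a block. At 5000 UMIs only library 7 (12 cells) and library 11 (11 cells) had the 10 CXCL1-detected cells that a sum required. In this edgeR fit 28 of 6141 genes (0.456%) were called, all of them higher (130 were lower at an unadjusted p under 0.05, and DESeq2 called 0 lower), and all 4 of the genes studied that could be tested were among them. CXCL2, CXCL3 and CCL20 passed the low-count filter through the CXCL1-detected sums, CXCL2 at 167 and 218 CPM against 1.56 and 2.70. CXCL16, with 0 UMIs in these sums, was not tested, so the filter in part fixed this count. Without the filter the same 4 were called, and CXCL16, CX3CL1, CXCR4 and CSF1 were not (adjusted p = 0.984 for each, edgeR). CXCL8 was at 617 CPM, here without TMM (95% exact Poisson interval 434 to 850) in CXCL1-detected cells of library 7 and at 106 (82.5 to 135) in the other cells. In library 11 the values were 1473 (1170 to 1830) and 51.4 (36.3 to 70.5). The intervals, which cover counting error only, were apart in both libraries. The log2 difference of CXCL8 was 3.71 (SE 0.43, adjusted p = 2.57e-14, edgeR). Without the filter it was 4.58 for CCL20 (SE 0.45, adjusted p = 3.43e-20) and 3.44 for CXCL3 (SE 0.60, adjusted p = 1.80e-05, edgeR). These values rest on 2 libraries and on few cells. In library 11, 18.2% of the CXCL1-detected cells held all 36 CCL20 UMIs of such cells. With the filter but without the library block, adjusted p was 0.000111 for CXCL8, 7.64e-07 for CCL20 and 0.00167 for CXCL3 (edgeR). CXCL2 had 10 UMIs in the 12 CXCL1-detected cells of library 7 and 1 in the 128 others, and 12 against 2 in library 11.

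With all UMIs every library entered, with 22, 29, 14, 20 and 19 CXCL1-detected cells in libraries 6, 7, 8, 10 and 11. CCL20 was at 303, 322, 280, 126 and 200 CPM in them and at 3.81, 10.6, 13.9, 8.76 and 11.6 in the cells without CXCL1. CXCL8 was at 245, 962, 170, 274 and 490 in CXCL1-detected cells and at 10.5, 22.2, 9.52, 54.7 and 36.4 in the others. In library 7, 753 of the 1188 CXCL8 UMIs of the CXCL1-detected cells came from 1 cell, which had 1 CXCL1 UMI. Without library 7 the log2 difference of CXCL8 was 3.60 (adjusted p = 6.22e-11, edgeR). CXCL2 was at 40.3, 31.6, 120, 106 and 70.6 against 0.914, 0.966, 0.929, 6.88 and 3.28. In each library the CXCL1-detected cells were higher for these ligands, and for CXCL3 (66.0 to 174 against 6.73 to 12.8). Of 10830 genes, 432 were higher and 165 lower (5.51% called, 3.99% higher). The differences were 4.69 for CCL20 (SE 0.21), 3.99 for CXCL8 (SE 0.25), 3.84 for CXCL3 (SE 0.21) and 4.92 for CXCL2 (SE 0.29), the largest of the adjusted p being 6.55e-12, for CXCL8 (edgeR). These calls held in all 18 settings that tested CXCL3, CXCL8 and CCL20 and all 12 that tested CXCL2. A gene was tested only where the low-count filter let it in or no filter was used.

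CX3CL1 and CXCR4 also passed with all UMIs, and both calls could be lost when a single library was left out. CX3CL1 was at 23.3, 7.29, 12.6, 7.86 and 11.4 CPM in CXCL1-detected cells against 7.62, 3.86, 2.09, 2.81 and 4.18, higher in all 5 libraries. Its log2 difference was 1.5 (SE 0.35, adjusted p = 0.00822, edgeR). Without library 6 it was 1.49, with a larger SE (0.46) and an adjusted p of 0.0696 (edgeR). CXCR4 was at 10.6, 10.5, 0, 27.5 and 4.55 against 0.762, 0.483, 1.63, 3.44 and 9.55, so that libraries 8 and 11 went the other way. Its log2 difference was 2.18 (SE 0.53, adjusted p = 0.0114), with adjusted p = 0.0772 without library 6 and 0.0806 without library 10 (edgeR). CXCL16 did not pass at -0.67 (SE 0.36, adjusted p = 0.310, edgeR), and it was lower in the CXCL1-detected cells of all 5 libraries. CSF1 had too few UMIs for this test.

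CXCL1-detected cells were deeper than the others in 4 of 5 libraries with all UMIs (median 44786 against 29242 UMIs in library 6) and shallower in library 11 (14271 against 19313). Their leukocyte markers summed to 61.5, 47.8, 27.4, 11.8 and 9.11 CPM in libraries 6, 7, 8, 10 and 11, against 17.1, 20.04, 22.3, 7.82 and 7.46 in the cells without CXCL1. ITGAM, an integrin chain of myeloid cells, was the leukocyte marker with the most UMIs (198) and was higher in CXCL1-detected cells by 1.86 (SE 0.38, adjusted p = 0.00331, edgeR). It made up most of the sums of libraries 6 and 7, with 45 and 36 UMIs in CXCL1-detected cells against 36 and 29 in the others. CD14, CD68, CSF1R and FCER1G each had at most 8 UMIs in the CXCL1-detected cells of a library, and fewer there than in the more numerous other cells. Per cell they went both ways. CD68 had 8 UMIs in 29 CXCL1-detected cells of library 7 and 20 in the 113 others, but 0 in 14 and 10 in 149 in library 8. PTPRC had 1 UMI in the CXCL1-detected cells of all libraries, and EPCAM, an epithelial surface protein, was found in 100.0% of them. The part of depth and of these markers in the differences was not tested.

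The split was repeated on other genes, a choice made after seeing the data. In cells with a CXCL8 UMI (30 to 52 per library) CXCL1 was higher by 4.76 (SE 0.19), CXCL2 by 4.82 (SE 0.26), CXCL3 by 3.17 (SE 0.18) and CCL20 by 4.08 (SE 0.16), the largest of the adjusted p being 4.78e-10 (edgeR, 2.32% of genes called, 2.04% higher). In cells with a CX3CL1 UMI 0 of 6 tested passed in edgeR (4 had an unadjusted p under 0.05), and 0.448% of all genes did. In cells with a CXCL16 UMI, 3 ligands were lower, while 0.206% of all genes were called and 0.0359% were lower. CCL20 was at 18.3, 9.92, 0, 3.17 and 2.65 CPM in CXCL16-detected cells of libraries 6, 7, 8, 10 and 11 and at 51.2, 119, 53.1, 40.1 and 41.2 in the others. It fell by 3.00 (SE 0.37, adjusted p = 0.00378), CXCL1 fell by 2.3 (SE 0.43, adjusted p = 0.0392) and CXCL3 fell by 1.69 (SE 0.27, adjusted p = 0.0117) in this edgeR fit. CXCL8 went up in library 7 (425 against 143) and down in the other libraries, and did not pass (-0.65, SE 0.40, adjusted p = 0.900, edgeR), but passed without library 7 (-1.5, adjusted p = 0.0124, edgeR). In library 7, 753 of the 772 CXCL8 UMIs of the CXCL16-detected cells came from 1 cell. CXCL2 did not pass (-2.10, SE 0.43, adjusted p = 0.0694, edgeR), but did without library 6 (adjusted p = 0.0288, edgeR) and with DESeq2 (adjusted p = 0.00986). The CCL20 call held without each library in turn and with DESeq2, the CXCL1 call was lost without libraries 7, 8 or 10 and with DESeq2, and the CXCL3 call was lost without library 7 or 8. CXCL16-detected cells were deeper than the others in every library, so depth moved with this split too. The median mitochondrial share was 5.70% against 13.8% in library 10 and 8.93% against 13.0% in library 11, and closer in the other libraries. In some libraries the shares of cells with a UMI were much alike although the levels were not, as for CXCL1 in library 6 (9.80% of CXCL16-detected cells against 9.60% of the others) and for CCL20 in library 7 (17.1% against 16.8%), so that few rich cells made the difference there. The part of depth and of the mitochondrial share was not tested.

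The difference between CXCL1-detected and other cells was compared between time points with an interaction term. CXCL8 was the gene of the 7 tested whose difference changed: it was smaller at 4 dpi by 1.69 on the log2 scale (-1.69, SE 0.33, adjusted p = 0.0317, edgeR), where 0.0831% of genes were called and 0.0277% were lower. In the cells without CXCL1, CXCL8 was at 9.52 to 22.2 CPM at 1 dpi and 36.4 to 54.7 at 4 dpi, without overlap. In the CXCL1-detected cells it was at 170 to 962 at 1 dpi and 274 and 490 at 4 dpi, overlapping. The value of 962 was that of library 7, where 753 of 1188 UMIs came from 1 cell. For CCL20 the interaction was -1.03 (SE 0.39, adjusted p = 0.468) and for CXCL2 -1.64 (SE 0.57, adjusted p = 0.434) in the same edgeR fit. The CXCL8 call was lost with DESeq2 and without library 6, 7, 8 or 10. At 5000 UMIs the interaction could not be fitted, because only 2 libraries had enough cells.

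Among the 6645 genes with a UMI in at least 10% of the 815 cells at 5000 UMIs, those whose cell-by-cell pattern was most like that of CXCL1 were CXCL8 (mean r 0.557 over the 5 libraries), BTG2 (0.430), NFKBIA (0.406), IER3 (0.323) and JUNB (0.299). CXCL2, CXCL3 and CCL20 were seen in fewer cells and so were not among those genes, and their r with CXCL1 on the same scale was 0.545, 0.495 and 0.536, above that of BTG2. BTG2 and IER3 are early response genes, NFKBIA encodes the inhibitor that holds NF-kB in the cytoplasm, and JUNB is a part of AP-1. By the same rule the genes most like CXCL3 were CXCL8 (0.468), NFKBIA (0.421), TNFAIP3 (0.364), BTG2 (0.358) and BIRC3 (0.345). For CXCL8 they were BTG2 (0.489), NFKBIA (0.442), IER3 (0.397), FOS (0.393) and ZFP36 (0.379), where CXCL1 gave 0.557 and CCL20 gave 0.572. For CXCL16 the highest were BAG4 (0.155), PHF21A (0.154), MDN1 (0.151), EHMT2 (0.150) and GGA3 (0.137), which are weak values in sparse counts and name no pattern. These r describe cells that share libraries and carry no test.

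Of the genes of the NF-kB pathway that could be tested, 16 of 28 were higher in CXCL1-detected cells and 13 of 29 were lower at 4 dpi. The list had 31 genes, and 0 were lower in the split with all UMIs (edgeR, also 0 lower at an unadjusted p under 0.05), where 3.99% of all genes were higher, with a median log2 difference of 0.77 beside 0.0053 over all genes. At 5000 UMIs, where depth was equal, 5 of 21 were higher (0.456% of all genes were called). With all UMIs TNFAIP2 was higher by 3.38 (SE 0.39), NFKBIZ by 2.41 (SE 0.33), NFKBIA by 2.18 (SE 0.13), TNFAIP3 by 2.04 (SE 0.15) and BIRC3 by 1.84 (SE 0.13). Between time points 1 rose and 13 fell, beside 13.4% and 14.2% of all genes, with a median of -0.51 beside 0.0023 over all genes. BCL3, a co-regulator of NF-kB, fell by 2.59 (SE 0.19), PLAU by 1.96 (SE 0.46), BIRC3 by 1.68 (SE 0.18), and NFKB1 and TNFAIP3 both by 1.31 (SE 0.14 and 0.13). CEBPB rose by 0.35 (SE 0.12). Of the 28 genes tested in both comparisons, 11 were higher in CXCL1-detected cells and lower at 4 dpi. CXCL2 rose between time points, CCL20 fell, and CXCL1, CXCL3 and CXCL8 did not pass.

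**Figure D1:**
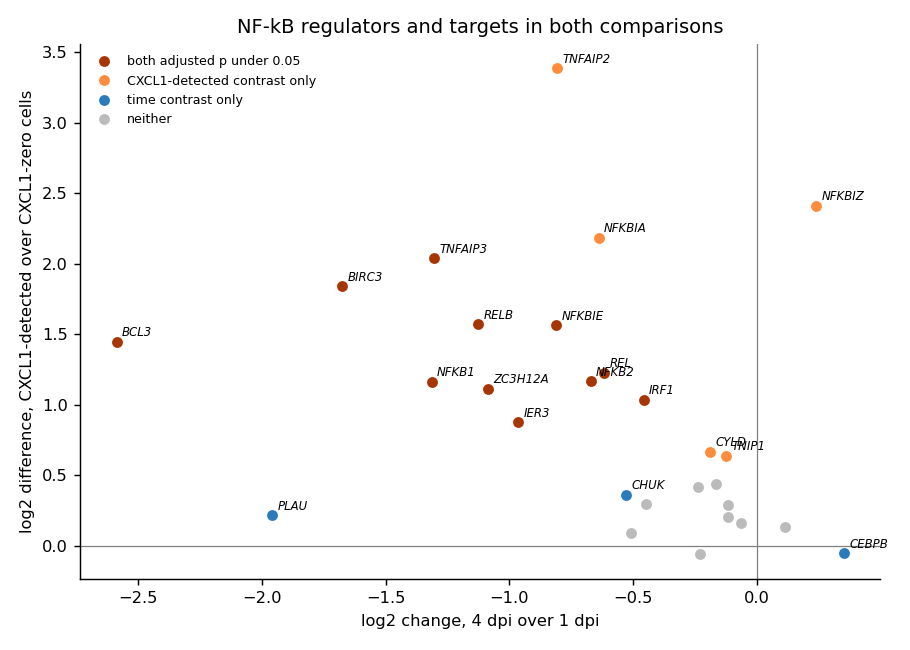
Log2 change between time points (x axis, 4 dpi over 1 dpi) against log2 difference between CXCL1-detected and other cells (y axis, all UMIs) for the 28 genes of the NF-kB list tested in both; each point is 1 gene, and color gives which adjusted p were under 0.05. Most lie left of 0 and above it, such as BIRC3 at -1.68 and 1.84, and CEBPB lies to the right at 0.35.

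Regulators of mRNA decay through AU-rich elements, which the ELR ligand transcripts carry, were measured beside them. Of 19 genes, 5 were higher in CXCL1-detected cells and 0 lower (edgeR, also 0 lower at an unadjusted p under 0.05) with all UMIs, beside 3.99% of all genes that were higher, with ZFP36 at 1.24 (SE 0.12), ZC3H12A at 1.11 (SE 0.15), RC3H1 at 0.67 (SE 0.15), ZFP36L2 at 0.60 (SE 0.11) and ZFP36L1 at 0.45 (SE 0.13), and a list median of 0.17. At 5000 UMIs 1 of 17 was higher. ZFP36 and its relatives bind such elements and speed decay, and ZC3H12A is an RNase that cuts inflammatory transcripts. Between time points 6 fell and 1 rose (14.2% and 13.4% of all genes did), with ZC3H12A at -1.09 (SE 0.18), ZC3H12C at -0.78 (SE 0.23), MAPK14 at -0.51 (SE 0.14), RC3H1 at -0.49 (SE 0.14), TIAL1 at -0.48 (SE 0.10) and KHSRP at 0.45 (SE 0.10), and a list median of -0.22. PABPC1, the member with the most UMIs (44636), passed neither test.

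Few other chemokines were counted well enough to test. Of 21 other chemokine ligands 3 were tested between time points, and CXCL6, a further ELR ligand, rose by 1.43 (SE 0.38, adjusted p = 0.0100) and was higher in CXCL1-detected cells by 1.70 (SE 0.39, adjusted p = 0.00711, edgeR). Of 23 other chemokine receptors 2 were tested and 0 passed in edgeR (also 0 at an unadjusted p under 0.05), with CXCR3, the one with the most UMIs (185), at 0.03 (SE 0.30, adjusted p = 0.957, edgeR). Among 25 myeloid growth factors and cytokines 15 were tested between time points, 2 rose and 3 fell, shares near the 13.4% and 14.2% of all genes tested. These were MDK at 0.81 (SE 0.10) and HMGB1 at 0.45 (SE 0.08), and C3 at -2.76 (SE 0.56), TGFB1 at -1.13 (SE 0.30) and KITLG at -0.73 (SE 0.18). In CXCL1-detected cells 3 of 12 were higher and 2 lower with all UMIs (1 of 6 was higher at 5000 UMIs), namely LIF at 1.31 (SE 0.31), IL23A at 1.19 (SE 0.24), IL32 at 1.06 (SE 0.15), ANXA1 at -0.64 (SE 0.13) and MDK at -0.51 (SE 0.14).

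CX3CL1 and CXCL16 are released from the cell surface by the proteases ADAM10 and ADAM17. Of 12 genes of shedding and trimming 4 were tested, and TIMP3, an inhibitor of such proteases, rose by 0.82 between time points (SE 0.25, adjusted p = 0.0218, edgeR). ADAM10 gave 0.04 (SE 0.15, adjusted p = 0.876), ADAM17 gave -0.33 (SE 0.12, adjusted p = 0.0600) and TIMP1, the one with the most UMIs (5809), gave -0.24 (SE 0.11, adjusted p = 0.109) in that edgeR fit. Between CXCL1-detected and other cells 0 of the 4 passed in edgeR (1 had an unadjusted p under 0.05), where ADAM17 gave 0.02 (SE 0.14) and ADAM10 0.04 (SE 0.19).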

How the data were processed

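Raw UMI counts per gene and well were deposited for 5 plates, and the authors made them by SORT-seq, with the well barcode and UMI in read 1 and read 2 (60 bases) aligned with BWA to the human transcriptome (hg38 in the processing notes; no versions were found in the sources). The deposited counts were whole numbers without normalization. Each plate was 1 library and 1 replicate, grouped by its label into 1 dpi (n = 3) and 4 dpi (n = 2). Genes listed in all libraries and seen in at least 10 wells (15022 of 15266 listed) and cells of more than 2000 genes and under 25% mitochondrial UMIs were kept. Wells held 1 sorted cell, and no doublet caller was run. The 9 genes, the lists and the tests were chosen with earlier results of these data known.

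UMIs were summed per library, or per library and kind of cell with at least 10 cells a sum, and tested with edgeR 4.0.16 (TMM, filterByExpr, quasi-likelihood test, two-sided, Benjamini-Hochberg over all genes, threshold 0.05) in R 4.3.3. DESeq2 1.42.0 was the alternative tool. Thinning was a single random draw unless an average over draws is named. At 5000 UMIs per cell the sums could be made in 2 libraries alone, so the fit with all UMIs is given beside it. Shares were compared by exact permutation of the libraries (scipy 1.17.1), and intervals (95%) are exact and cover counting error only. Alternatives changed the minimum of genes (1000, 3000), the mitochondrial maximum (15%, none), scaling, low-count filter, gene set, flow cell, depth, minimum of cells (5) and the libraries included.

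On simulated data of these sizes, in which 200 genes were given a log2 change of 1.5, the tests called 90.9% of the changed genes between time points (12646 genes), 92.3% in the CXCL1 split with all UMIs (10830 genes), 3.80% in that at 5000 UMIs (6141 genes) and 49.7% in the interaction (10830 genes).

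Besides the 9 genes, those named are the called genes of a list (at most 5 with the largest change for each comparison), its gene with the most UMIs, and the 5 genes most like CXCL1, CXCL3, CXCL8 and CXCL16, each of which had a UMI in at least 20 cells of every library. Likeness was the mean within-library r of log counts among genes seen in at least 10% of the thinned cells. Lists of 6 kinds were written from general knowledge and overlap in part.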

Additional observations from a re-analysis of the deposited data

Results flagged for a closer look

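CXCL8 differed between time points in its difference between CXCL1-detected and other cells: the log2 difference was smaller at 4 dpi (-1.69, SE 0.33, adjusted p = 0.0317, edgeR interaction, all UMIs), and the call was lost with DESeq2 and without library 6, 7, 8 or 10.

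Wells that did not pass, which no comparison used, also held the ligands: 236 UMIs of CXCL1, CXCL2, CXCL3, CXCL8 and CCL20 were counted in 64 of 607 such wells. This was 133 CPM of their human UMIs, against 208 CPM in the cells that passed. By library, the wells that did not pass held 211, 147 and 471 CPM at 1 dpi and 106 and 82.6 at 4 dpi, and the passing cells 129, 402 and 113 at 1 dpi and 245 and 173 at 4 dpi.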

How the results depend on the processing

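Genes called between time points numbered 3485, and 1197 after thinning to 5000 UMIs. Of the 9 genes 3 were called, against 1 with DESeq2, 0 of the 5 that could be tested after thinning (edgeR, 1 at an unadjusted p under 0.05) and 1 to 4 with a library left out. Shares without overlap were found for 2 genes in a single draw at 5000 UMIs, and CXCL3 joined them when averaged over draws. They were found for 1 with a minimum of 1000 or 3000 genes, a mitochondrial maximum of 15% or none, and for 3 to 4 with a library left out. Genes called in the CXCL1 split numbered 28, and 597 with all UMIs, 81 at 10000 UMIs, 11 with DESeq2, 15 without the low-count filter, 9 without the library block, 47 with sums of 5 cells (45 at a mitochondrial maximum of 15%, and 46, 35, 35, 60 and 34 without library 6, 7, 8, 10 and 11) and 420 with all UMIs and DESeq2 (333, 321, 400, 697 and 508 with all UMIs and without these libraries). The interaction called 1 of the genes studied, and 0 with DESeq2 (2 at an unadjusted p under 0.05), at 10000 UMIs (1) or with sums of 5 cells (0), and 0 to 1 with a library left out (edgeR, 2 to 3). The following time differences turned in direction: CXCL1 to -0.29 without library 10, CXCL3 to -0.51 after thinning and -0.46 without library 10, CXCL8 to 0.33 with the flow cell as a term, 0.66 after thinning, 0.44 without the top cells and 1.47 without library 7, CXCL16 to -0.0013 without the top cells, and CX3CL1 to 0.13 without library 6. With a library left out these ran from -0.29 to 1.11 for CXCL1, -0.46 to 0.59 for CXCL3, -0.59 to 1.47 for CXCL8 and -0.76 to 0.13 for CX3CL1. CXCL1 was also called with the flow cell as a term (0.70, adjusted p = 0.0470, edgeR). The causes were not tested. Splits at 5000 UMIs without library 7 or 11 or with a mitochondrial maximum of 15% could not be fitted, since fewer than 2 libraries had 10 CXCL1-detected cells. Sums of 5 cells and the splits of all UMIs with DESeq2 or without a library were added after seeing the data. No paired analysis was possible because the labels give the time points no shared replicate number. The flow cell was read from the name under which each library's counts were deposited, and by that name the 2 flow cells each held both time points. Genes with under 40 UMIs in all, such as CSF1 (39), were below what this depth can compare.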

Other observations

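Wells of the same number on 2 plates were compared, since all plates used the same barcodes. Where a well was among the 5 richest in the 5 ligands on a plate, the same well of another plate held a UMI of them in 12 of 38 cases on the same flow cell (31.6%) and in 17 of 59 on the other (28.8%), beside 26.9% of all 1433 wells with 200 genes. Among the wells with at least 20 UMIs of the 5 ligands on both of 2 plates, well 185 had the largest sum, with 219 UMIs of the 5 ligands in library 8 and 41 in library 11, and its CCL20 counts were 75 and 0.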
